A study of Mus musculus with 8 samples.

Results

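Interferon-stimulated genes were followed in regulatory T (Treg) cells of the mouse, the Foxp3-expressing CD4 T cells that restrain immune responses. The set was a fixed list of 49 symbols that had no measured value in its rule, though it was chosen with earlier results of these data known. All 49 were found, each in 1 row, among the 57180 genes of the deposited count table. RNA was sequenced from Treg cells that were sorted by flow cytometry, in 8 libraries. The titles call 5 of them chimera WT and 3 chimera KO, here the WT-labelled and KO-labelled libraries. Library names begin with FY for WT-labelled replicates 2 and 3 and with CY for the rest, and the labels do not say what this marks. The labels give no deleted gene, strain, age, sex, treatment or time, and they do not say how the chimeras were made or which host cells remained. The deleted gene could therefore not be checked in the data, and the libraries are not tied to single animals, so p-values measure only the spread between these libraries. In such bulk RNA, fewer cells of a type and less RNA per cell cannot be told apart.

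Cells make interferon-stimulated genes in answer to interferons, proteins released on infection and, at a low tonic level, in healthy tissue. Type I interferons act through IFNAR1 and IFNAR2 and the kinases JAK1 and TYK2, which activate a complex with STAT2 and IRF9 that binds the interferon-stimulated response element (ISRE). Interferon gamma acts through IFNGR1 and IFNGR2 and on to the gamma-activated site (GAS), and IRF1 carries the signal on to a further set of genes. The products block viral RNA, entry and egress, or, as GTPases, attack the vacuoles of intracellular microbes. In T cells, several of them are also made constantly.

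The promoter letters of the members are shown first. The list was chosen by name, but interferons act on such genes through the ISRE and GAS. High shares of matches therefore follow in part from the choice of list and are no independent result. RefSeq promoter windows on the GRCm38.p6 build, from 250 bases before to 50 bases after each annotated start, were on hand for 36 of the 49 members. The core of the ISRE, GAAA, any 2 bases and GAAA again, was searched on both strands. It was present for 22 of these 36 members (61.1%), against 1079 of 27025 genes (4.0%). TTCNNNGAA, the core of the GAS, which reads the same on either strand, was present for 14 of 36 members (38.9%), against 2582 of 27025 genes (9.6%). Counted by window, since a gene can have several starts, 23 of 49 member windows (46.94%) held the ISRE letters and 3.44% of all 32851 windows did. Either motif occurred in 27 of 36 members (75.0%) and in 12.9% of all genes. The motifs can overlap each other, and a match is a stretch of letters, not a measured binding site. Upstream of the start, ISRE matches lay 14 to 222 bases away (median 64) and GAS matches 45 to 245 bases away (median 90).

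**Figure D1:**
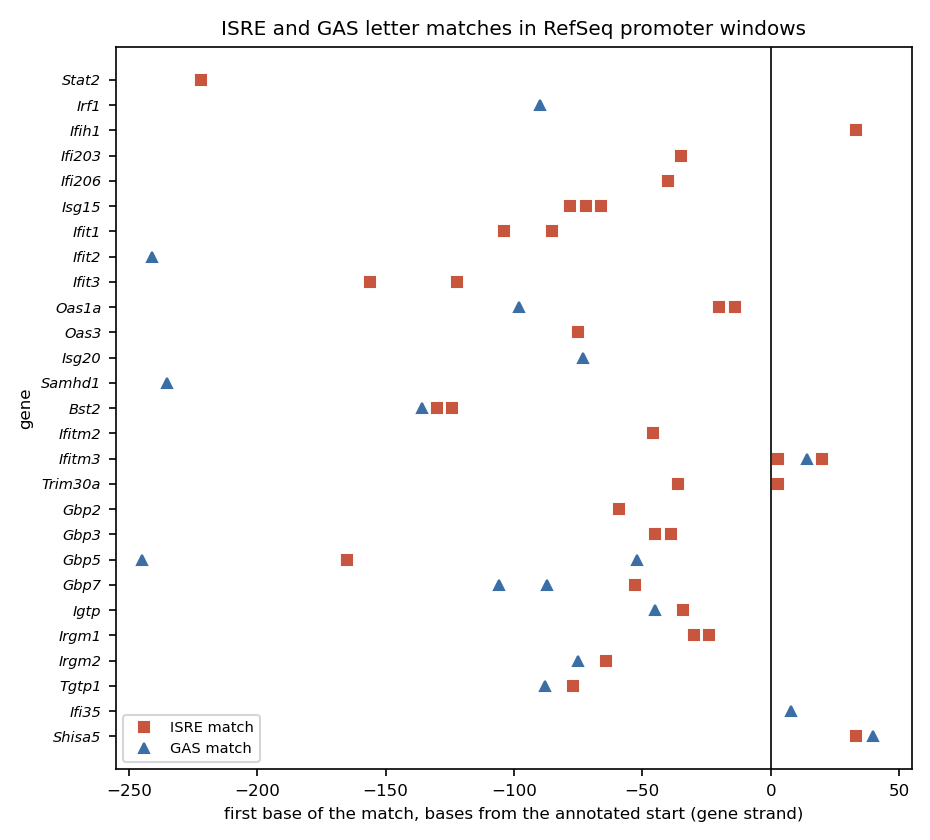
Each symbol marks the first base of an ISRE (squares) or GAS (triangles) letter match for the 27 members with a match; the horizontal axis is the distance in bases from the RefSeq start on the gene's strand, negative upstream, and the vertical axis lists genes. Most ISRE matches lie within about the last 100 bases before the start (median 64), and Igtp, Irgm2 and Tgtp1 show a GAS symbol directly before an ISRE symbol.

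The 120 bases before the start are printed below, 5′ to 3′ on the gene's strand, with ISRE and GAS letter matches in capitals. Sequence and build are those of RefSeq, and the first set shows the ISRE arrangements: overlapping copies in Isg15 and Irgm1, spaced copies in Ifit1 on the opposite strand, and a single copy with the same 10 letters in the neighbouring sensor genes Ifi203 and Ifi206.
Isg15 (chr4:156200819-156200938, minus strand): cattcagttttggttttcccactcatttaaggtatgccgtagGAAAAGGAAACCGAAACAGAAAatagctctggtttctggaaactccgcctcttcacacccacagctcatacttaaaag
Irgm1 (chr11:48871421-48871540, minus strand): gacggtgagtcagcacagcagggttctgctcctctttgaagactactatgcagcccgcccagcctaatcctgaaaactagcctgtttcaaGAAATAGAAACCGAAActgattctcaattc
Ifit1 (chr19:34640769-34640888, plus strand): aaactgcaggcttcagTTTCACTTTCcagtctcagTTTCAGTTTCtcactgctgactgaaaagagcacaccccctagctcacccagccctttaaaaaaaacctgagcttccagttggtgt
Ifi203 (chr1:173942493-173942612, minus strand): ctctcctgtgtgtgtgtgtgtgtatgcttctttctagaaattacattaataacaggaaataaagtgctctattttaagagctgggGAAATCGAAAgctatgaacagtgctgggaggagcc
Ifi206 (chr1:173491319-173491438, minus strand): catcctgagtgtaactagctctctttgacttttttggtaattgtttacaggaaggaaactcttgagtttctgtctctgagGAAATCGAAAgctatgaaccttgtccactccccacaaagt

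The second set shows a GAS followed after 2 bases by an ISRE in 3 GTPase genes of chromosome 11.
Igtp (chr11:58199436-58199555, plus strand): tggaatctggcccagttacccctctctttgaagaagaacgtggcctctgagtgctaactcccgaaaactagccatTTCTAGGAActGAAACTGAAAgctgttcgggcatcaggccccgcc
Irgm2 (chr11:58214857-58214976, plus strand): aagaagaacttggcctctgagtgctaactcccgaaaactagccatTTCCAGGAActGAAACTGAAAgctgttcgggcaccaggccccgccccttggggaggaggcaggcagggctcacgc
Tgtp1 (chr11:48992247-48992366, minus strand): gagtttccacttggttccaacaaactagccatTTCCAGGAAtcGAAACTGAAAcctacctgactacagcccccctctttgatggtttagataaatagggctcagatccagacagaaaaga
This arrangement, an ISRE on the gene's strand that begins 11 bases after the first base of a GAS, was found in 5 of 32851 windows (0.015%), those of Igtp, Irgm2, Tgtp1, Tgtp2 and Gm12185, all on chromosome 11. The arrangement was noticed among the members and then counted. The 5 windows are not independent occurrences. The printed Igtp and Irgm2 letters are nearly the same around the motifs. Tgtp1 has 79.4% of its transcript stretches of 50 bases in Tgtp2 and 5.6% in Gm12185.

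The third set holds members whose expression did not overlap between the groups, Gbp7 with a pair of GAS matches and an ISRE, and Isg20 with a single GAS match at the first of its 3 RefSeq starts.
Gbp7 (chr3:142530216-142530335, plus strand): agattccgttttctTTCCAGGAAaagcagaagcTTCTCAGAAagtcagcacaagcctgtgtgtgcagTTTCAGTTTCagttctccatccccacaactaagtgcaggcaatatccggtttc
Isg20 (chr7:78913304-78913423, plus strand): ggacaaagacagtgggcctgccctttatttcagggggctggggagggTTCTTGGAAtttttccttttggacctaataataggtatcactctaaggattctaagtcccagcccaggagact

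Levels below are normalised CPM (CPM with library sizes scaled by TMM factors), and changes are log2 KO-labelled minus WT-labelled from edgeR's quasi-likelihood test, with p adjusted over all genes tested. Library totals ranged from 10544594 to 17976947 counts in WT-labelled libraries and from 4314262 to 8477688 in KO-labelled ones. The TMM factors were 1.15, 1.09, 1.08, 0.4 and 0.69 in WT-labelled replicates 1 to 5 and 1.36, 1.49 and 1.32 in KO-labelled replicates 1 to 3. Every KO-labelled factor was above every WT-labelled one, so the scaling itself lowers KO-labelled levels relative to WT-labelled ones. WT-labelled replicates 4 and 5 stood apart in markers of other cells, which sum over fixed lists of 7 B cell, 9 NK and cytotoxic cell and 6 erythroid genes. B cell markers summed to 3108 in WT-labelled replicate 4 and to 82.2 to 555 elsewhere. NK and cytotoxic markers summed to 4276 there and to at most 144 elsewhere, although Ncr1, which defines NK cells, was at 0 counts in all 8 libraries. Erythroid markers summed to 9102 in WT-labelled replicate 5 and to at most 22.2 elsewhere. The 5 T cell markers summed to 1567 to 11664 in WT-labelled libraries, highest in replicate 4, against 865 to 1403 in KO-labelled ones. The 5 Treg markers summed to 2186 to 6011 against 635 to 2562, and KO-labelled replicates 2 and 3 were below every WT-labelled library. Ikzf2 weighed heavily in these sums, with 4633 of the 6011 in WT-labelled replicate 2, but 81.1 of the 2845 in replicate 4. The sums use the TMM factors and were not repeated with total counts. Monocyte, neutrophil and platelet markers summed to at most 64.2, 233 and 4.12. Markers of the plasmacytoid dendritic cell, a strong interferon producer, summed to 273 in WT-labelled replicate 4 and to 19.7 to 147 elsewhere, with Bst2, itself a member of the set, giving 139 of the 273, and with its defining gene Siglech at 0 to 9 counts in every library. Foxp3 had 144, 422, 499, 22 and 9 counts in WT-labelled replicates 1 to 5 and 304, 18 and 135 in KO-labelled replicates 1 to 3. The part of these marker differences in the results was not tested, and for many of the genes named the log2 change without WT-labelled replicates 4 and 5 is given as well.

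As a set, the members had mostly negative log2 changes in the KO-labelled libraries, and no single member passed the test. The count filter was passed by 44 members, of which 37 had negative and 7 positive log2 changes (84.1% negative). Negative changes made up 56.8% of all 14755 genes tested and 66.5% of the protein-coding ones. The median log2 change of the tested members was −1.31, against −0.42 over all genes tested and −0.86 over protein-coding genes tested. With total counts in place of TMM factors, the median over all genes went from −0.42 to 0.21, that of the members from −1.31 to −0.59, and 31 of 44 members (70.5%) were negative against 45.3% of all genes. Without WT-labelled replicates 4 and 5 the members' median was −0.69, against −0.15 over all genes, and 33 of 42 tested members were negative (78.6%, against 53.5%).

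By edgeR, 0 of 44 members and 0% of all genes passed an adjusted p of 0.05. At an unadjusted p under 0.05 there were 5 of 44 members (11.4%), against 14.4% of all genes tested, a share below that background. DESeq2 called 2 of the 41 members for which it gave an adjusted p (4.88%), Isg20 and Gbp7, against 9.65% of genes in either direction and 5.57% lower in KO-labelled libraries. By limma-voom 0 members and 0.149% of genes passed. Every KO-labelled library lay below every WT-labelled one for 3 of 44 members (6.82%), Isg20, Gbp7 and Shisa5, against 4.49% of all genes, and for 0 of these 44 did every KO-labelled library lie above. In either direction, groups did not overlap for 17.7% of all genes.

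**Figure D2:**
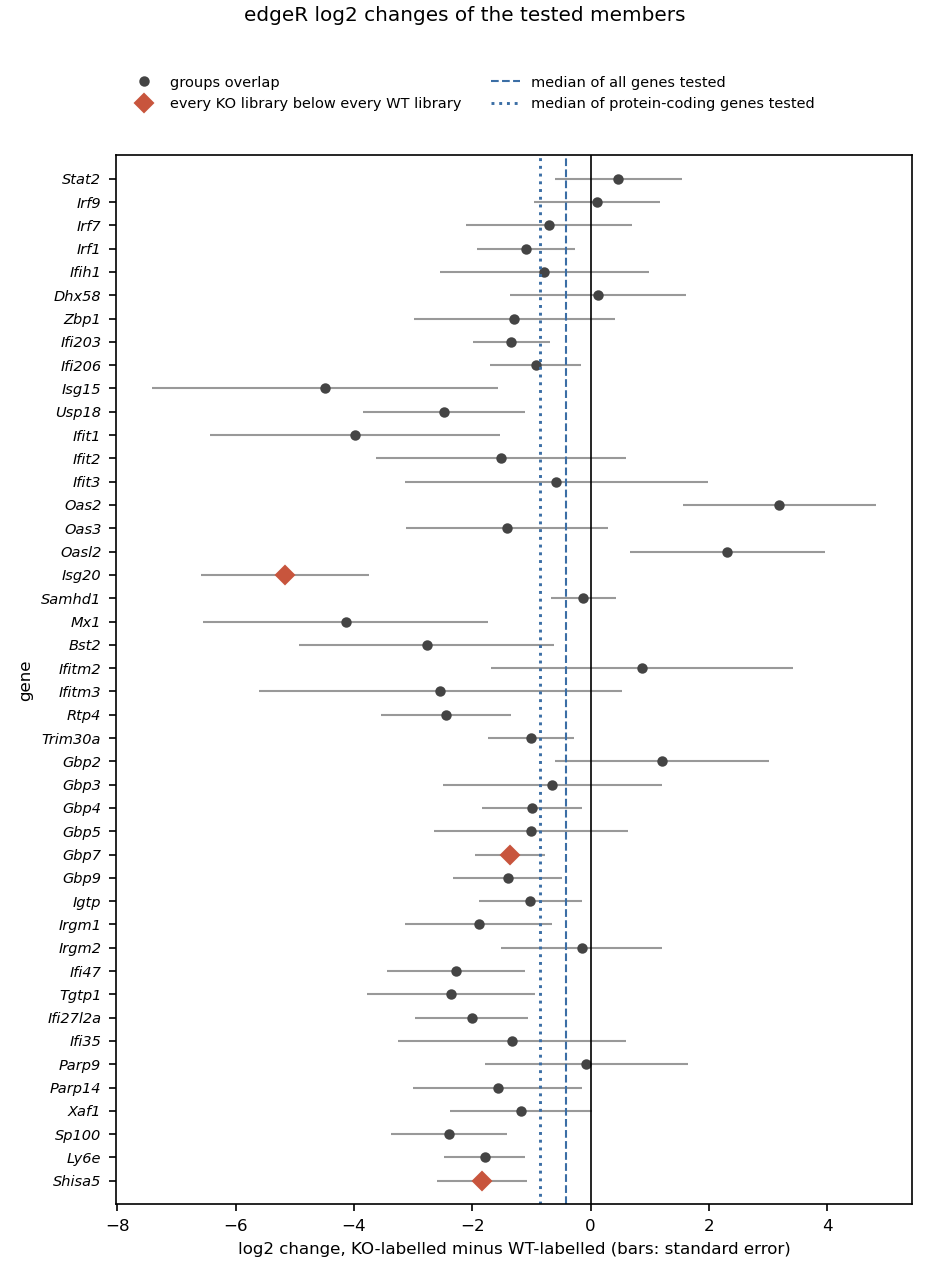
Points are the log2 changes of the 44 tested members, KO-labelled minus WT-labelled, with bars of 1 standard error; red diamonds mark the 3 members whose KO-labelled libraries all lie below the WT-labelled ones, and dashed and dotted lines mark the medians of all genes (−0.42) and of protein-coding genes (−0.86). Of the 44 points, 37 lie left of 0, and the bars of many members span 0.

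The scale of the members in each library does not rest on TMM factors when it is given as a share of all counts. The 49 members held 0.821, 0.681, 0.817, 1.13 and 0.876% of counts in WT-labelled replicates 1 to 5 and 0.769, 0.527 and 0.385% in KO-labelled replicates 1 to 3. KO-labelled replicates 2 and 3 were lower than any WT-labelled library, while replicate 1 lay within the WT-labelled range. Much of each share came from Ifi27l2a, Ly6e and Shisa5, which made up 66.7% of the members' counts in WT-labelled replicate 4 and 37.1 to 53.7% elsewhere. The other 46 members held 0.377 to 0.481% in WT-labelled libraries, against 0.443, 0.277 and 0.198% in the KO-labelled libraries.

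Members were often well counted in 1 library and at 0 in the next. WT-labelled replicate 4, the deepest library, had 13 members at 0 counts, and also held the highest normalised CPM of 20 of the 49 members. The low TMM factors of WT-labelled replicates 4 and 5 (0.4 and 0.69) raise such ranks, and the share over all genes was not counted. WT-labelled replicate 5 had 11 members at 0 and held the highest value of 11. Fewer genes of any kind were counted in these libraries: 8250 and 9484 genes had 10 or more counts in WT-labelled replicates 4 and 5, against 12491 to 14318 in the other 6 libraries. In the other 3 WT-labelled libraries 4 to 6 members were at 0, and in KO-labelled replicates 1 to 3 there were 2, 2 and 8. Where no read was counted, up to 3 counts remain possible in that library, a limit that covers counting error only. The within-group SD on the log2(normalised CPM + 1) scale had a median over tested members of 1.89 in WT-labelled libraries, against 1.1 in KO-labelled ones. It was larger in the WT-labelled libraries for 31 of 44 members (70.5%), near the 69.9% of all genes tested.

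**Figure D3:**
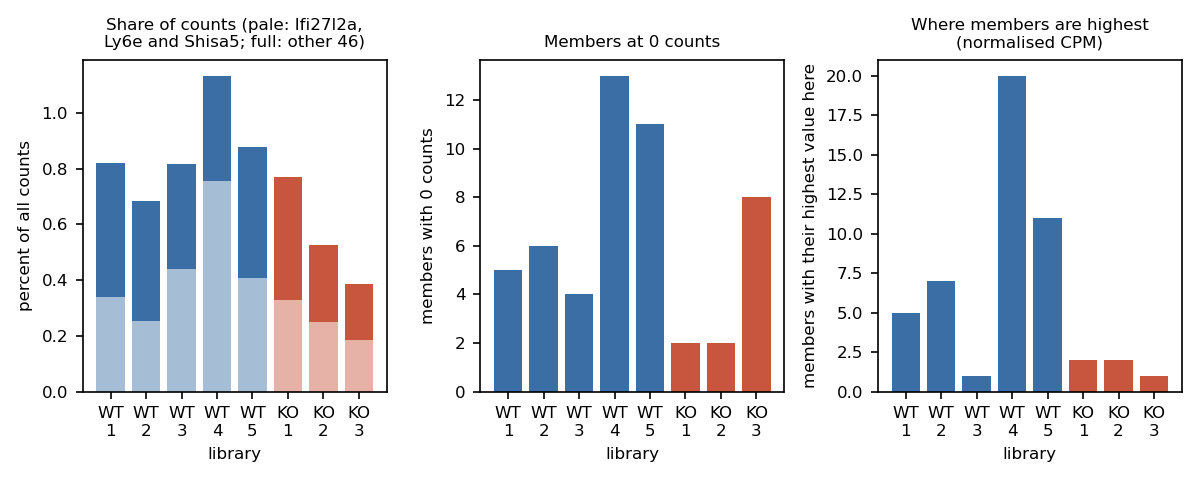
Bars give, for each of the 5 WT-labelled (blue) and 3 KO-labelled (red) libraries, the members' percent of all counts, the number of members with 0 counts, and the number of members whose highest normalised CPM is in that library. WT-labelled replicate 4 has both the most members at 0 (13) and the most highest values (20), a count that depends on its TMM factor of 0.4.

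**Figure D4:**
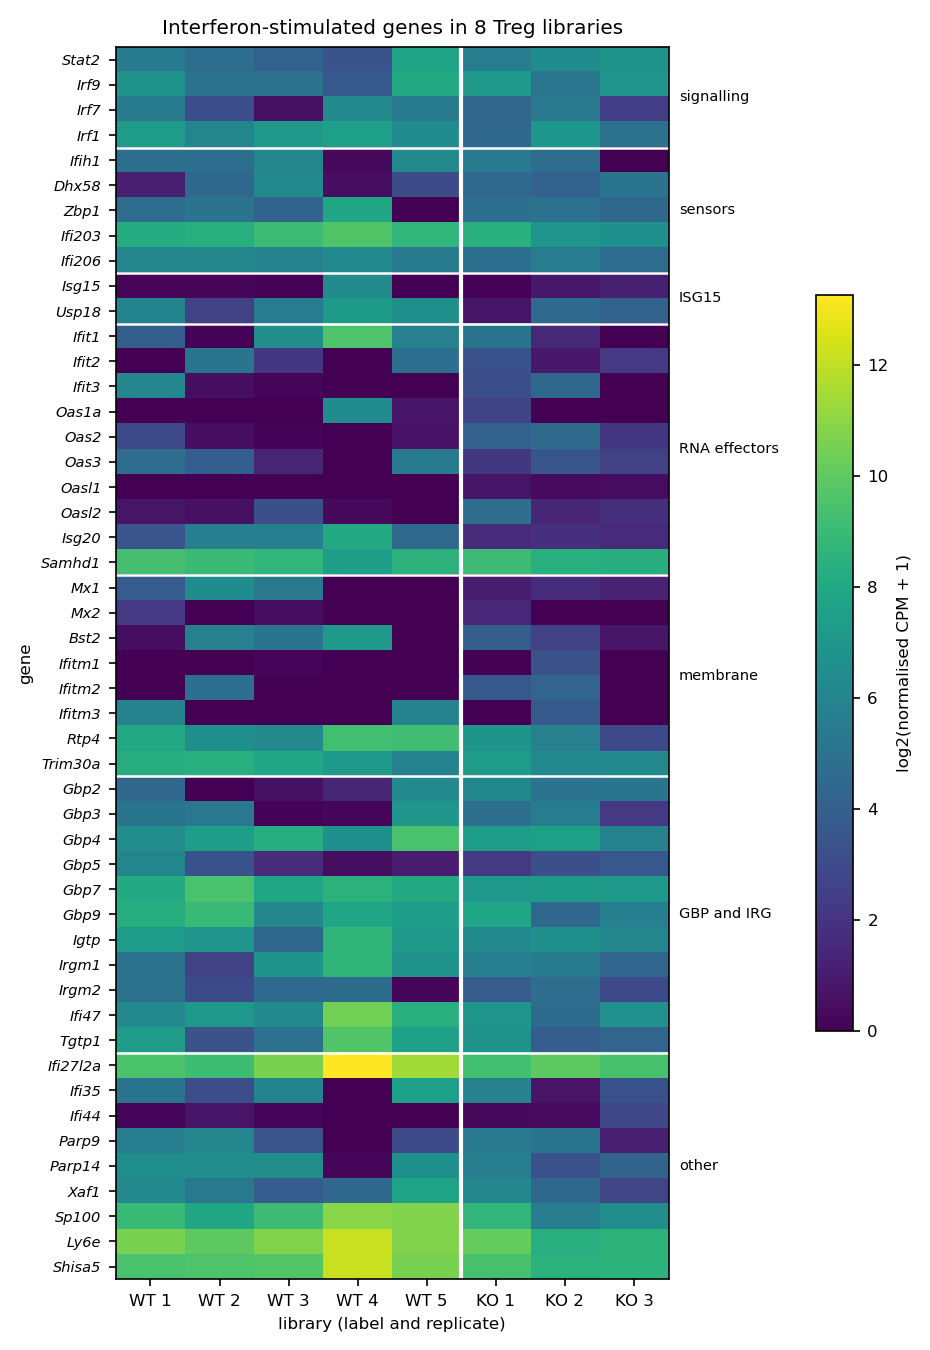
Colour shows log2(normalised CPM + 1) of each of the 49 members (rows, grouped by role) in the 8 libraries (columns, label and replicate). Bright rows such as Ifi27l2a, Ly6e, Shisa5, Gbp7 and Samhd1 are high in every library, while Ifit, Oas, Mx and Ifitm genes switch between dark and mid tones from library to library.

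The signalling and transcription factor genes showed no common direction, with negative log2 changes for 2 of 4 (1 of 4 with total counts). Stat2 encodes the STAT that is particular to type I and III interferon signalling. Its levels over WT-labelled replicates 1 to 5 were 43.5, 27.2, 16.3, 9.55 and 205, against 47.4, 87.2 and 117 over KO-labelled replicates 1 to 3. The groups overlapped through WT-labelled replicate 5 alone, and the log2 change was 0.47 (SE 1.07, edgeR adjusted p = 0.818). Without WT-labelled replicates 4 and 5 the change of Stat2 was 1.58 and every KO-labelled library lay above the others. In that setting groups did not overlap for 27.1% of all genes tested, with KO-labelled libraries below for 10.9%. KO-labelled libraries lay above for 2 of 42 members, Stat2 and Gbp2.

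Irf9, the DNA-binding partner of STAT2, stood at 106, 31.8, 30.5, 11.4 and 271 in WT-labelled libraries, against 138, 36.5 and 118 in KO-labelled ones (log2 change 0.11, 95% interval −2.24 to 2.47). Its sign turned with the scaling, to −0.24 with DESeq2's size factors. Irf1, a target of interferon gamma that activates many of the GTPase genes, stood at 156, 67.4, 137, 178 and 82.9 against 20.3, 123 and 31.1. KO-labelled replicates 1 and 3 were below every WT-labelled library and replicate 2 was not (log2 change −1.09, SE 0.83, edgeR adjusted p = 0.495). Irf7, which amplifies type I interferon production, ranged from 0.5 to 74.3 in WT-labelled libraries, against 4.47 to 38.4 in KO-labelled ones, and its change of −0.70 became 0.33 with total counts and 0.35 without WT-labelled replicates 4 and 5.

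Among the 5 sensors of foreign nucleic acid, 4 had negative log2 changes, and 3 with total counts. Ifi203, a DNA-binding protein of the IFI200 family, was the most abundant, at 292, 330, 538, 807 and 432 in WT-labelled libraries, against 348, 119 and 99.5 in KO-labelled ones. Only KO-labelled replicate 1 reached the WT-labelled range (log2 change −1.34, SE 0.65, edgeR adjusted p = 0.358). Its relative Ifi206 stood at 65.9, 70.9, 58.2, 79.8 and 45.6 against 27.7, 48.0 and 25.4, so that the KO-labelled libraries lay below all but WT-labelled replicate 5 (log2 change −0.93, SE 0.77, edgeR adjusted p = 0.527). Ifi206 shares 25.6% of its transcript 50-mers (stretches of 50 bases) with other genes, mostly Ifi208 and Ifi213, and its counts are uncertain to that degree. Both promoters printed above hold the ISRE letters GAAATCGAAA, 35 bases before the start in Ifi203 and 40 in Ifi206.

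Zbp1, a sensor of Z-form nucleic acid that triggers cell death, stood at 25.9, 32.2, 18.2, 249 and 0 in WT-labelled libraries, against 27.7, 31.0 and 20.9 in KO-labelled ones. The log2 change of −1.29 came from WT-labelled replicate 4: it was 0.48 without that library and 0.01 with total counts. The RNA helicases Ifih1 (MDA5) and Dhx58 (LGP2) ranged from 0.281 to 77.6 and from 0.421 to 82.0 in the WT-labelled libraries, and from 0 to 42.4 and from 17.2 to 33.8 in KO-labelled ones, with log2 changes of −0.78 and 0.13.

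The ISG15 system had 2 members. Isg15, the ubiquitin-like protein that is attached to other proteins after interferon, is the textbook marker of the response and carries overlapping ISRE matches. It had 2, 2, 1, 597 and 0 counts in WT-labelled replicates 1 to 5 and 1, 6 and 7 in KO-labelled ones, so that only WT-labelled replicate 4 was above 10 counts. Its fitted log2 change of −4.49 (95% interval −11.02 to 2.04) rests on that library, and without it Isg15 had at most 2 counts in any WT-labelled library. Usp18, the protease that removes ISG15 and dampens IFNAR2 signalling, had 741, 60, 555, 1072 and 697 counts against 8, 146 and 93. In normalised CPM this was 61.5, 5.2, 46.7, 151 and 97.2 in WT-labelled libraries, against 0.7, 21.8 and 16.6 in KO-labelled ones (log2 change −2.47, SE 1.37, edgeR adjusted p = 0.39). WT-labelled replicate 2 kept the groups from separating, and the change was −1.46 without replicates 4 and 5. Usp18 was thus counted in every library, while Isg15 had at most 7 counts in 7 of 8.

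The RNA-directed effectors held the member with the smallest p of the set, and 6 of 8 tested had negative log2 changes (5 of 8 with total counts). Isg20, a 3′ to 5′ exonuclease of single-stranded RNA, lies on chromosome 7 at 78913424 to 78920396 on the plus strand. It had 124, 580, 618, 1866 and 165 counts in WT-labelled libraries, against 24, 17 and 11 in KO-labelled ones. Normalised, Isg20 stood at 10.3, 50.3, 52.0, 262 and 23.0 against 2.1, 2.54 and 1.97, with every KO-labelled library below every WT-labelled one and the KO-labelled values within a narrow range. The log2 change was −5.17 (SE 1.42, 95% interval −8.35 to −1.98), with an unadjusted p of 0.00478 and an adjusted p of 0.325 in edgeR, and −5.89 with an adjusted p of 0.000266 in DESeq2. Leaving out single libraries gave −5.43 to −3.93. Without WT-labelled replicates 4 and 5 it was −4.07 and with total counts −3.98, and the groups did not overlap in either case. None of its transcript 50-mers was shared with another gene (0%).

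Samhd1, which hydrolyses deoxynucleotides and limits reverse transcription, was abundant in every library. Samhd1 stood at 652, 523, 424, 173 and 373 in WT-labelled libraries, against 542, 339 and 303 in KO-labelled ones. The groups overlapped fully, with a log2 change of −0.12 (95% interval −1.36 to 1.12) that turned to 0.38 with total counts. Ifit1, which binds viral RNA with an unmethylated cap, had 172, 1, 1150, 5626 and 392 counts against 394, 12 and 0, so that low and high libraries occurred under both labels (log2 change −3.98, SE 2.45, edgeR adjusted p = 0.421). The change of Ifit1 was −1.68 when WT-labelled replicates 4 and 5 were left out.

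The Ifit and Oas genes were sparse. Ifit2 had 0, 394, 41, 0 and 196 counts in WT-labelled libraries, against 103, 6 and 20 in KO-labelled ones, and Ifit3 852, 5, 2, 0 and 0 against 92, 138 and 0. Much of the Ifit3 and Oas1a sequence also occurs in another gene: 51.2% of the 50-mers of Ifit3 are in Ifit3b and 57.6% of those of Oas1a in Oas1g. Summing Ifit3 with Ifit3b gave 887, 6, 6, 0 and 1 against 96, 139 and 23 counts, so that KO-labelled replicate 3 went from 0 to 23 counts and WT-labelled replicates 2 to 5 had at most 6. The synthetases that activate RNase L, Oas1a, Oas2 and Oas3, were each near 0 in some libraries, and Oas1a reached 592 counts in WT-labelled replicate 4 alone.

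Oas2 and the related Oasl2 had the largest positive log2 changes of the set. Oas2 had 81, 5, 1, 0 and 4 counts in WT-labelled libraries, against 190, 155 and 19 in KO-labelled ones (log2 change 3.19, SE 1.63, edgeR adjusted p = 0.374). Oasl2 had 8, 6, 100, 2 and 0 against 291, 11 and 14 (log2 change 2.31, SE 1.65, edgeR adjusted p = 0.474), a change of −0.01 when KO-labelled replicate 1 was left out. For both genes a single WT-labelled library kept the groups from separating. Oasl1, whose product holds back translation of Irf7, had 0 counts in all 5 WT-labelled libraries and 8, 2 and 2 counts in the KO-labelled ones.

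**Figure D5:**
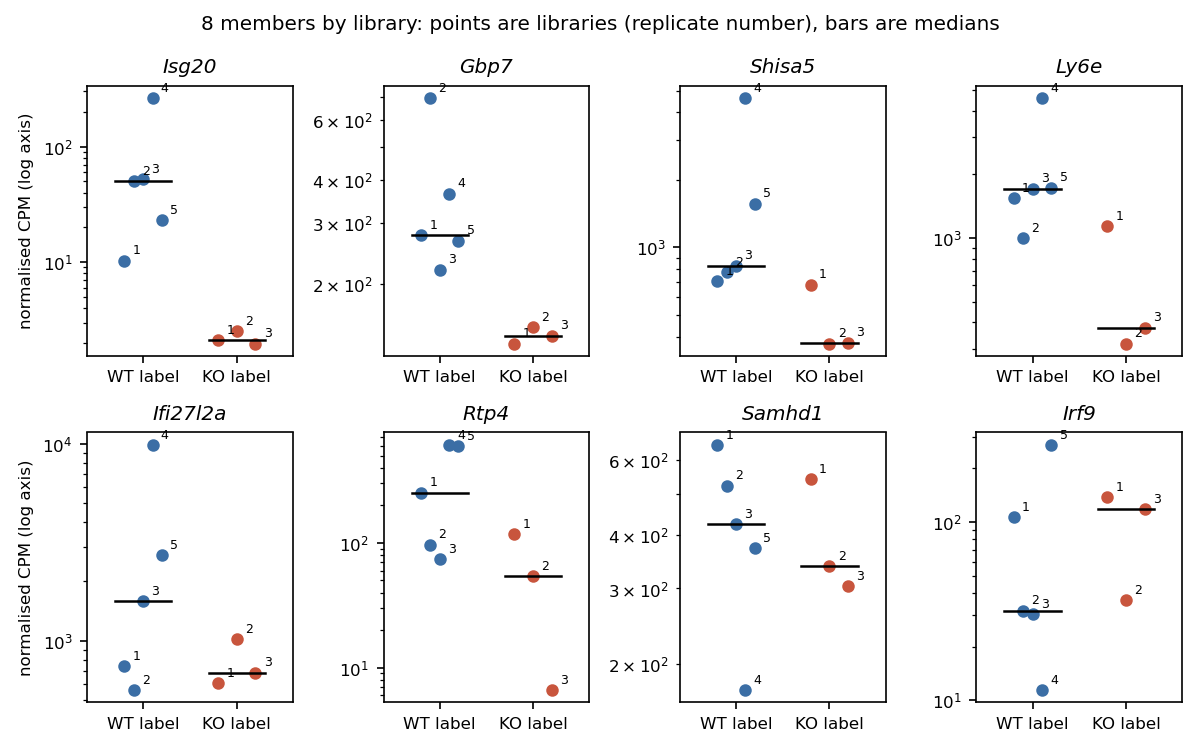
Points are single libraries (numbered by replicate) and bars group medians of normalised CPM, on log axes, for 8 members. Isg20, Gbp7 and Shisa5 show no overlap between the groups, while KO-labelled replicate 1 lies within or near the WT-labelled range for Ly6e, Rtp4, Samhd1 and Irf9.

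Of the membrane and trafficking effectors, 6 of 8 were tested and 5 had negative log2 changes, also with total counts. Rtp4, a chaperone of membrane receptors that also binds viral RNA, stood at 252, 96.8, 74.1, 610 and 594 in WT-labelled libraries, against 117, 54.1 and 6.62 in KO-labelled ones. KO-labelled replicates 2 and 3 were below every WT-labelled library, and replicate 1 lay within the WT-labelled range (log2 change −2.45, 95% interval −4.92 to 0.01, edgeR adjusted p = 0.348). The change of Rtp4 was −1.24 without WT-labelled replicates 4 and 5. Trim30a, which restrains NF-kappaB signalling, stood at 303, 315, 235, 145 and 55.4 against 159, 80.1 and 75.5 (log2 change −1.01, SE 0.73, edgeR adjusted p = 0.478). Every KO-labelled library lay below WT-labelled replicates 1 to 3, as for 10.9% of all genes tested without WT-labelled replicates 4 and 5.

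Bst2 (tetherin), which holds budding virions at the cell surface, had 5, 620, 397, 989 and 0 counts in WT-labelled libraries, against 162, 33 and 4 in KO-labelled ones, and the groups overlapped (log2 change −2.77, SE 2.15, edgeR adjusted p = 0.503). Mx1, a dynamin-like GTPase, was singled out after its values were seen: it had 160, 1001 and 473 counts in WT-labelled replicates 1 to 3, 0 in replicates 4 and 5, and 12, 15 and 8 in KO-labelled ones. Leaving out those 2 libraries, its groups did not overlap (log2 change −4.85, and −4.14 with them), as for 27.1% of all genes then tested in either direction and 10.9% with KO-labelled libraries below. The change was −1.24, with overlap, without the FY libraries. The Ifitm genes, which block fusion of viruses with membranes, were at 0 in 5 or more of the 8 libraries each. Ifitm2 had 325 counts in WT-labelled replicate 2, 133 and 130 in KO-labelled replicates 1 and 2 and 0 elsewhere (log2 change 0.87). Ifitm3 had 726 and 433 counts in WT-labelled replicates 1 and 5, 83 in KO-labelled replicate 2 and 0 elsewhere (log2 change −2.54). Of the Ifitm2 sequence, 48.5% of 50-mers occur in other genes, mostly the predicted gene Gm45717.

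The GTPases of the guanylate-binding (GBP) and immunity-related (IRG) families, which target the vacuoles of bacteria and parasites and are induced chiefly by interferon gamma, had negative log2 changes in 10 of 11 members (median −1.02), and in 8 of 11 with total counts. Gbp7 lies in the GBP cluster of chromosome 3 at 142530342 to 142550149 on the plus strand. It stood at 278, 692, 220, 366 and 267 in WT-labelled libraries, against 134, 150 and 142 in KO-labelled ones. Every KO-labelled value of Gbp7 was below every WT-labelled one, and the KO-labelled values were close together (142 ± 7.77, SD, n = 3). The log2 change was −1.36 (SE 0.59, 95% interval −2.67 to −0.05), with an adjusted p of 0.338 in edgeR and 0.0499 in DESeq2. With total counts it was −0.73 and the groups overlapped. Of its 50-mers, 12.7% are shared, mostly with the predicted gene Gm43802.

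Other members of the same cluster had overlapping groups. Gbp2 had 240, 0, 6, 11 and 552 counts in WT-labelled libraries, against 817, 212 and 192 in KO-labelled ones, the 1 positive log2 change among the GTPases (1.21, 95% interval −2.83 to 5.25). Leaving out WT-labelled replicates 4 and 5, every KO-labelled library lay above every WT-labelled one for Gbp2 (log2 change 2.79). Groups then did not overlap for 27.1% of all genes tested, with KO-labelled libraries below for 10.9%. Gbp3 had 425, 450, 1, 1 and 909 counts against 312, 309 and 20, and Gbp5 799, 107, 27, 3 and 7 against 44, 56 and 65, and the sign of Gbp3 turned with the scaling (−0.65, 0.11 with total counts and 0.11 without WT-labelled replicates 4 and 5). For Gbp3 and Gbp5, the WT-labelled libraries included normalised CPM both below and above all KO-labelled ones.

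On chromosome 5, Gbp4 and Gbp9 overlap in the annotation (105115767 to 105139586 and 105077630 to 105139539, both on the minus strand). Gbp4 stood at 91.1, 166, 309, 98.5 and 700 in WT-labelled libraries, against 170, 185 and 56.6 in KO-labelled ones (log2 change −0.99, SE 0.84, edgeR adjusted p = 0.534), with KO-labelled replicates 1 and 2 in the middle of the WT-labelled values. Without WT-labelled replicates 4 and 5 it was −0.45. Gbp9 ranged from 69.4 to 505 in WT-labelled libraries, against 21.1 to 219 in KO-labelled ones (log2 change −1.40).

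Among the IRG genes of chromosome 11, Ifi47 was the most abundant. Ifi47 stood at 73.8, 135, 75.2, 1382 and 336 in WT-labelled libraries, against 121, 24.8 and 104 in KO-labelled ones (log2 change −2.27, SE 1.17, edgeR adjusted p = 0.374). The size came from WT-labelled replicates 4 and 5, and without them the change was −0.20. Of the 3 genes that share the joined GAS and ISRE, Igtp went from −1.02 to −0.20 and Tgtp1 from −2.36 to −0.46 without these libraries. Irgm2 did not, with −0.15 and −0.33, and its sign turned to 0.50 with total counts. Irgm1, a regulator of the other IRG proteins, went from −1.89 to −0.44.

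Tgtp1 has 79.4% of its 50-mers in the neighbouring copy Tgtp2, so the split between them is uncertain. Their summed normalised CPM was 224, 422, 29.4, 1510 and 246 in WT-labelled libraries, against 173, 13.9 and 27.9 in KO-labelled ones, and the groups still overlapped. Igtp and Irgm2 overlap in the annotation (from 58199556 and 58199618 on the plus strand) and share 11.8% of the 50-mers of Igtp.

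The remaining members include the 3 most abundant genes of the set, and all 8 tested had negative log2 changes (median −1.68), or 7 of 8 with total counts, where Parp9 turned to 0.31. Compared per kilobase of gene length, Ifi27l2a led with 4805 normalised CPM per kilobase over the 8 libraries, ahead of Ly6e at 860 and Shisa5 at 650. Sp100 followed at 254, Rtp4 at 195 and Ifi47 at 168. Several members best known as antiviral were lower: Oas2 had 1.61 normalised CPM per kilobase and Mx2 0.305, and Isg15 had 15.4, or 0.541 without WT-labelled replicate 4. The order below the first 3 differed between the groups: over KO-labelled libraries Samhd1 had 101 per kilobase, Sp100 69.1, Rtp4 51.3 and Ifi47 49.5.

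Ifi27l2a (chromosome 12, 103442167 to 103443680, minus strand) encodes a small membrane protein of the nuclear envelope and mitochondria. Its level was 740, 559, 1580, 9893 and 2718 in WT-labelled libraries, against 607, 1015 and 688 in KO-labelled ones. The KO-labelled values fell among those of WT-labelled replicates 1 to 3, and the log2 change of −2.01 (SE 0.95, edgeR adjusted p = 0.356) was −0.29 without WT-labelled replicates 4 and 5. Ly6e (chromosome 15, 74955051 to 74959905, plus strand), a surface protein of lymphocytes that restricts coronavirus entry, stood at 1542, 1001, 1712, 4569 and 1731 in WT-labelled libraries, against 1135, 317 and 378 in KO-labelled ones. KO-labelled replicates 2 and 3 were well below every WT-labelled library and replicate 1 was above WT-labelled replicate 2 (log2 change −1.79, 95% interval −3.31 to −0.27, unadjusted p = 0.0255, adjusted p = 0.325 in edgeR). It was −1.23 when WT-labelled replicates 4 and 5 were left out.

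Shisa5 (chromosome 9, 109038565 to 109057777, plus strand), a membrane protein of the endoplasmic reticulum that takes part in p53-dependent death, stood at 708, 777, 830, 4625 and 1567 against 682, 372 and 377. The groups did not overlap, though KO-labelled replicate 1 was close to WT-labelled replicate 1 (log2 change −1.83, SE 0.76, edgeR adjusted p = 0.327). The change was −0.69 without WT-labelled replicates 4 and 5 and −0.73 with total counts, when the groups overlapped. Sp100, a nuclear body protein named here for its unadjusted p after its values were seen, stood at 496, 244, 546, 1905 and 1741 against 420, 46.1 and 94.9 (log2 change −2.40, unadjusted p = 0.0346, adjusted p = 0.325 in edgeR), with a change of −1.23 without WT-labelled replicates 4 and 5.

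The ADP-ribosyltransferase genes Parp9 and Parp14 are neighbours on chromosome 16. Parp14 had 1148, 1029, 1115, 1 and 717 counts in WT-labelled libraries, against 571, 62 and 97 in KO-labelled ones, so that WT-labelled replicate 4 alone kept its groups from separating (log2 change −1.57). Parp9 had 594, 759, 123, 0 and 51 against 454, 233 and 7, with a log2 change of −0.07. Ifi35 and the apoptosis factor Xaf1 had changes of −1.33 and −1.17 (−0.67 and −0.43 without WT-labelled replicates 4 and 5), with values from 0 to 178 and from 13.4 to 209 in the WT-labelled libraries.

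The count filter removed 5 members. Oas1a had 0, 0, 0, 592 and 5 counts in WT-labelled libraries, against 64, 0 and 0 in KO-labelled ones, and Mx2, a polymorphic pseudogene in the annotation, 44, 0, 5, 0 and 0 against 21, 0 and 0. Ifitm1 was counted in a pair of libraries, with 58 counts under KO-labelled replicate 2 and 2 under WT-labelled replicate 3. Ifi44 reached 34 counts in KO-labelled replicate 3, against 8 or fewer in every other library. Oasl1, given above, was the fifth, with counts in each KO-labelled library and in no WT-labelled one. With no filter on low counts 0 of all 49 members passed the edgeR test. An unadjusted p under 0.05 was then found for 9 of 49 members and for 4767 of 37204 genes.

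Promoter letters and expression can be set side by side for members with a promoter window. Of 21 tested members with an ISRE match, 18 had negative log2 changes (median −1.02), or 16 with total counts, and of 11 without one, 9 did (median −1.17). Of 13 tested members with a GAS match, 13 had negative changes (median −1.36), or 11 with total counts, and of 19 without one, 14 did (median −0.93). The GAS group holds Isg20, Gbp7 and Shisa5, whose groups did not overlap (3 of 13 with KO-labelled libraries below, against 4.49% of all genes tested). With total counts only Isg20 stayed apart. The matches of Shisa5 lie after the RefSeq start. These counts describe the list, and the difference between them was not tested.

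Of 47 other genes of interferon production and signalling, from a fixed list, 34 passed the filter and 0 passed the edgeR test. Among interferon genes, those of type I and III had 21 counts of Ifna1 in WT-labelled replicate 3 and at most 2 counts otherwise. Ifng, which encodes interferon gamma, had 139, 0, 405, 2103 and 528 counts in WT-labelled libraries, against 43, 0 and 0 in KO-labelled ones. Ifng was thus highest in WT-labelled replicate 4 (log2 change −6.00, SE 2.78, edgeR adjusted p = 0.352, and −3.62 without WT-labelled replicates 4 and 5). NK and cytotoxic markers were also highest there, as were 20 of the 49 members by normalised CPM, Ifi47 and Isg15 among them. That count depends on the TMM factor of 0.4, which raises levels in this library, and the share over all genes was not counted. Irf1, 1 of the 20, had 1268 of 17976947 counts there, a smaller share than in KO-labelled replicate 2 (825 of 4567177). WT-labelled replicate 4 had 13 members at 0 counts and the lowest WT-labelled levels of Stat2 (9.55) and Irf9 (11.4). A link between these values was not tested.

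Among receptors and Janus kinases, 7 of 8 tested genes had negative log2 changes, and the groups did not overlap, with KO-labelled libraries below, for 2 (4.49% of all genes tested). Jak1, which serves both interferon pathways and interleukin-2, stood at 965, 503, 591, 2347 and 904 in WT-labelled libraries, against 476, 135 and 139 in KO-labelled ones (log2 change −2.09, SE 0.74, edgeR adjusted p = 0.325). Ifngr1, the ligand-binding chain of the interferon gamma receptor, stood at 126, 111, 113, 659 and 97.6 against 73.0, 52.2 and 28.5 (log2 change −2.11, SE 0.91, edgeR adjusted p = 0.338). For both genes every KO-labelled library lay below every WT-labelled one, but not with total counts. Leaving out WT-labelled replicates 4 and 5 gave −1.46 for Jak1 and −1.17 for Ifngr1.

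The other factor and sensor genes gave these counts. Of 7 tested STAT and IRF factors outside the list, 6 had negative changes. Nlrc5, the activator of MHC class I genes, stood at 255, 334, 235, 278 and 286 against 171, 101 and 101, with no overlap and with the WT-labelled libraries close together (277 ± 37.2, SD, n = 5; log2 change −1.16, SE 0.53, edgeR adjusted p = 0.351). With total counts the groups of Nlrc5 overlapped.

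Of 10 tested genes of upstream sensing, 7 had negative changes, among them Tmem173 (Sting1), the adaptor of cytosolic DNA sensing, at 54.3, 39.0, 102, 365 and 843 against 38.7, 30.7 and 22.6, with no overlap (log2 change −3.19, SE 1.17, edgeR adjusted p = 0.325). The change of Tmem173 was −1.07 without WT-labelled replicates 4 and 5, and with total counts its groups overlapped. Mb21d1 (Cgas), the DNA sensor that acts before it, was singled out after its values were seen: it had 13, 8, 3, 1 and 2 counts against 28, 3 and 80, with a positive log2 change of 3.49 (unadjusted p = 0.0136, adjusted p = 0.325 in edgeR). Ikbke, a kinase that activates IRF factors, stood at 235, 245, 196, 143 and 9.21 against 164, 115 and 55.3. Of 8 negative regulators tested, 7 had negative changes. Pias1, a SUMO ligase that inhibits STAT factors, stood at 117, 101, 81.9, 239 and 326 against 45.7, 51.4 and 143, and the phosphatase gene Ptpn2 at 41.1, 245, 170, 0 and 223 against 127, 29.6 and 35.3. Both had groups that overlapped, with log2 changes of −1.11 and −1.08 (−0.29 and −1.27 without WT-labelled replicates 4 and 5).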

How the data were processed

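RNA from sorted Treg cells was sequenced in 8 libraries prepared, per the labels' protocols, with the SMART-Seq v4 kit, which does not mark strand; where genes overlap or run antisense, their reads cannot be separated. The authors deposited estimated counts per gene without further normalization, per the file headers and values, and 20.26% of them were not whole. Tools listed, without version or role, in the submitters' processing notes are RSEM, StringTie, HISAT2, fastp and DESeq2, with the build mm10. Their annotation: not given in the sources used here. Gene length in bases was taken as deposited, an unscaled value other than expression. The authors' group means were not used, since their WT mean equalled the mean of the 5 WT-labelled libraries for 36.85% of genes, and what else it holds is not known; the table held 0 columns of other samples. Replicate numbers come from the titles.

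After rounding to integers, the whole table was fitted with edgeR 4.0.16 (R 4.3.3); settings were filterByExpr with a minimum count of 10, TMM factors, quasi-likelihood test of KO-labelled minus WT-labelled, two-sided, Benjamini-Hochberg adjustment, and a threshold of 0.05. A standard error is the log2 change, unsigned, divided by the root of its F statistic. The procedure was tested on simulated data. Coordinates and gene types are from GENCODE M21 on GRCm38 (mm10), promoters from RefSeq on GRCm38.p6. Among the pathway genes, 3 were matched by an older symbol.

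Named with full values were the 3 members of each role group with the highest mean normalised CPM, each member past the edgeR threshold and each tested member whose groups did not overlap; other members are given by range or counts, and pathway genes by up to 2 per list. The members and lists were chosen with earlier results of these data known. The alternatives were DESeq2's size factors, total counts, other filters, protein-coding genes only, DESeq2 1.42.0, limma-voom (limma 3.58.1) with quality weights, a replicate block, leaving out each library, leaving out WT-labelled replicates 4 and 5, and leaving out the 2 libraries named FY (WT-labelled replicates 2 and 3). After the data were seen, the pathway genes' changes were added without WT-labelled replicates 4 and 5 and with total counts. Figures were drawn with matplotlib 3.10.9. The result of 1 pathway gene is not reported here.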

Additional observations from a re-analysis of the deposited data

Results flagged for a closer look

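For 9 of 22 values examined in the 5 WT-labelled libraries (normalised CPM of the 20 named members and their shares of counts), 1 library stood apart, in that its gap to the next library took up more than 0.71 of the range. For values with a normal distribution, chance alone gives such a gap in about 1 in 20 groups. That rate does not carry over to these values, which are unlogged and share the same 5 libraries. Most of the members were also named for a high mean, which 1 high library can raise. In 8 of the 9 cases the library was WT-labelled replicate 4, which also held the highest B cell, NK and cytotoxic markers and the lowest TMM factor; their part was not tested. It stood at 9893 for Ifi27l2a (next highest 2718), 4625 for Shisa5 (1567), 4569 for Ly6e (1731) and 1382 for Ifi47 (336). It stood at 790 for Ifit1 (96.7), 262 for Isg20 (52.0), 249 for Zbp1 (32.2) and 83.9 for Isg15 (0.173). In the remaining case WT-labelled replicate 5 stood at 205 for Stat2 (43.5).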

How the results depend on the processing

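Over 18 alternatives, 20 named members gave 357 values, of which 331 kept their sign and their side of the threshold, 24 changed sign and 2 were newly called (Isg20 and Gbp7 by DESeq2). Isg15 was below the filter without WT-labelled replicate 4, and without replicates 4 and 5. Counts of called genes were 1 with total counts, 1 without a filter, 1 at a mean of at least 5 CPM, 22 by limma-voom and 1431 by DESeq2, against 0, with 2124 genes at an unadjusted p under 0.05; DESeq2 called 2 members. The members' median was −0.59 with total counts (0.21 over all genes tested), −0.41 by limma-voom (0.18) and −0.46 with the replicate block (0.08). It was −0.69 without WT-labelled replicates 4 and 5 (−0.15). At a mean of at least 5 CPM it was −0.99 (−0.59), with 77.3% of members negative against 62.3% of genes. Among protein-coding genes only it was −0.86 (−0.42), with 77.3% negative against 59.1%. Members whose groups did not overlap numbered 5 with DESeq2's size factors (11.4%, against 16.1% of all genes), 1 with total counts (2.27% against 20.5%), 5 without a filter (10.2% against 8.1%) and 6 in DESeq2's counts (12.2% against 7.87%). These shares cover either direction. KO-labelled libraries lay below for 5, 1, 4 and 5 of these members, against 6.09, 1.67, 2.36 and 2.55% of all genes. Members with no overlap numbered 9 without WT-labelled replicates 4 and 5 (21.4% against 27.1%, 2 of them KO above), 10 without the FY libraries (23.3% against 32.3%, 2 KO above), and 4 to 8 when single libraries were left out (8 without KO-labelled replicate 1, 18.2% against 29.3%). KO-labelled libraries lay below for 7 of 42 without WT-labelled replicates 4 and 5 (16.7%, against 10.9% of all genes). The same held for 8 of 43 without the FY libraries (9.16% of all genes) and 8 of 44 without KO-labelled replicate 1 (8.85%).

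Sign changes were as follows. Irf9 had −0.24 with DESeq2's size factors, −0.15 without a filter, −0.27 by DESeq2, −0.41 without the FY libraries and −0.31 to 1.21 without single libraries (−0.09 without WT-labelled replicate 2 or 3, −0.17 without 4, −0.06 without KO-labelled replicate 3). Samhd1 had 0.38 with total counts, 0.13 at a mean of at least 5 CPM, 0.25 among protein-coding genes, 0.13 without the FY libraries and −0.48 to 0.09 without single libraries (0.02 without KO-labelled replicate 3). Zbp1 had 0.01 with total counts, 0.77 by limma-voom, 0.08 with the replicate block, 0.09 without WT-labelled replicates 4 and 5 and −1.52 to 0.48 without single libraries. Isg15 had 1.64 by limma-voom and 1.85 with the replicate block, Ifit1 0.44 with the block, and Stat2 −0.03 without the FY libraries. The cause was not tested.

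Same-numbered libraries correlated at 0.02, 0.02 and 0.05 in their deviations from group means. KO-labelled replicate 1 correlated best with WT-labelled replicate 4 (0.05) and KO-labelled replicate 3 with WT-labelled replicate 3 (0.05). KO-labelled replicate 2 correlated equally with WT-labelled replicates 2 and 3 (0.02). Correlations this near 0 do not settle whether the numbers pair the libraries. With the block 0 genes were called.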
